A study of Mus musculus with 2 samples.

Results

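Naive-like CD8 T cells of the infected mouse spleen were described from 1196 cells, 442 in a Vehicle library and 754 in a Glutoborin library, out of 17850 deposited barcodes. Both libraries came from WT mice that had been injected intraperitoneally with 10000 iRBCs, an abbreviation that the labels do not spell out. Vehicle or Glutoborin, a compound whose nature and dose the labels do not describe, was given on days 2 and 4 of the infection. Spleens were taken on day 5, and CD45+ cells were sorted and profiled by droplet-based 3′ single-cell RNA sequencing. The age, sex and number of mice behind each library are not given in the sources used here, and no uninfected library was analysed here. Each group is therefore 1 library: no test between groups was possible, and every interval printed is an exact 95% interval that covers counting error only.

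A naive CD8 T cell has left the thymus but has not yet met its antigen. It recirculates between blood, spleen and lymph nodes, guided by CCR7 and the lipid receptor S1PR1, and is kept alive and at rest by interleukin-7 and by weak contacts of its receptor with self peptides on MHC class I. Type I interferon, released early in many infections, acts on such bystander cells through the IFNAR receptor and a complex of STAT and IRF factors, which switch on a large set of antiviral genes.

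Members were chosen by measured values. A barcode with at least 300 genes, at least 500 UMIs (unique molecular identifiers, each standing for 1 captured transcript) and under 10% mitochondrial UMIs was a member if it had at least 2 UMIs of Cd3e, Cd3d and Cd3g together, at least 1 of Cd8b1, none of Cd4 and at most 2 of the B cell gene Cd79a. It could have at most 2 UMIs of Ccl5, fewer than 2 detected genes of 6 that mark memory cells (Eomes, Cxcr3, Ctla2a, Gzmm, Cd160, Il2rb) and fewer than 4 of 8 interferon-induced genes (Rsad2, Ifit1, Ifit3, Isg15, Usp18, Oasl1, Cmpk2, Ifi44). The values of these 21 genes in the members are a consequence of the choice and support nothing here.

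The members were 6.61% of 6688 filtered Vehicle barcodes (442 cells, interval 6.02% to 7.23%) and 8.15% of 9253 filtered Glutoborin barcodes (754 cells, interval 7.60% to 8.72%). The shares were equal before the interferon limit, when 586 Vehicle and 811 Glutoborin cells had passed every other step, 8.76% of filtered barcodes in each library. The limit then took away 24.6% of the Vehicle cells (144 of 586, interval 21.1% to 28.3%) and 7.03% of the Glutoborin cells (57 of 811, interval 5.37% to 9.01%). The memory limit, by comparison, took 30.2% and 29.3%, and the Cd79a limit 10.6% in both. The first filter on cell quality had removed 18.5% of barcodes in Vehicle and 4.07% in Glutoborin.

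Depth was similar in the members of both libraries, with a median of 6740.5 UMIs and 2054.5 genes per Vehicle cell and 6162.5 UMIs and 1872 genes per Glutoborin cell. The summed members held 3013637 and 4752595 UMIs. Of 24 barcodes that occurred in both libraries none was a member in both, and 4 members had their barcode in the other library. Transcripts of other cells were present in the members and differed between the libraries. The B cell markers summed to 1894 counts per 1000000 UMIs (CPM) in Vehicle and 1153 in Glutoborin, the myeloid markers to 612 and 453, and the plasma cell markers to 99.5 and 50.5. The neutrophil markers ran the other way, at 48.1 and 91.7 CPM, where 10 cells held 77.5% of the Glutoborin UMIs. Erythroid markers stayed at 3.98 and 1.89 CPM with Alas2 at 0, and the platelet genes Pf4 and Ppbp were at 0. NK cell markers outside the rule were at 67.0 and 58.7 CPM, gamma-delta T cell markers at 7.63 and 10.5, and CD4 and regulatory T cell markers at 94.6 and 62.9. The part of these transcripts in the differences between libraries was not tested.

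Marker genes that the rule does not use were then described, with every cell thinned at random to 2000 UMIs so that depth was equal. Of the members, 5 Vehicle and 2 Glutoborin cells were shallower and left out. Cd8a, Dapl1 and Ccr9 came with the rule as markers of this population, so their presence is a description and supports nothing. The B cells beside them had at least 3 UMIs of Cd79a and none of the Cd3 genes. They cannot tell naive-like from other CD8 T cells. Cd8a, the partner chain of the CD8 receptor, had a UMI in 53.1% of Vehicle and 56.8% of Glutoborin members, against 1.01% and 0.689% of B cells, where the gene should be absent (median depth before thinning 4754 and 4086 UMIs). Without thinning these shares of members were 85.3% and 85.5%. Dapl1 (GRCm38 chromosome 2, 59484653 to 59505020), a gene typical of resting CD8 T cells, was found in 36.4% and 38.3% of members and in 0.538% and 0.366% of B cells. Ccr9 (GRCm38 chromosome 9, 123678439 to 123784330), a receptor for the gut and thymus chemokine CCL25, was found in 20.4% and 17.7% of members and in under 0.4% of B cells.

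The genes of recirculation and rest were widely detected. Ccr7, the receptor that leads T cells into lymphoid tissue, was found in 38.4% of Vehicle and 35.8% of Glutoborin members. Lef1 and Tcf7, transcription factors of naive and stem-like T cells, were found in 73.2% and 70.1% (Lef1) and in 43.9% and 39.8% (Tcf7). Il7r, the interleukin-7 receptor chain, was found in 55.8% and 54.0%. Genes of experienced or dividing cells were rare: Cd44, the classical memory marker, in 0.915% and 1.06%, and Mki67, a gene of dividing cells, in 0.229% and 0.266%. Pdcd1, the gene of the inhibitory receptor PD-1, was detected in 0 of 437 thinned Vehicle and 0 of 752 thinned Glutoborin cells, so that a share of cells with a UMI of up to 0.687% in Vehicle and up to 0.399% in Glutoborin remains possible.

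**Figure D1:**
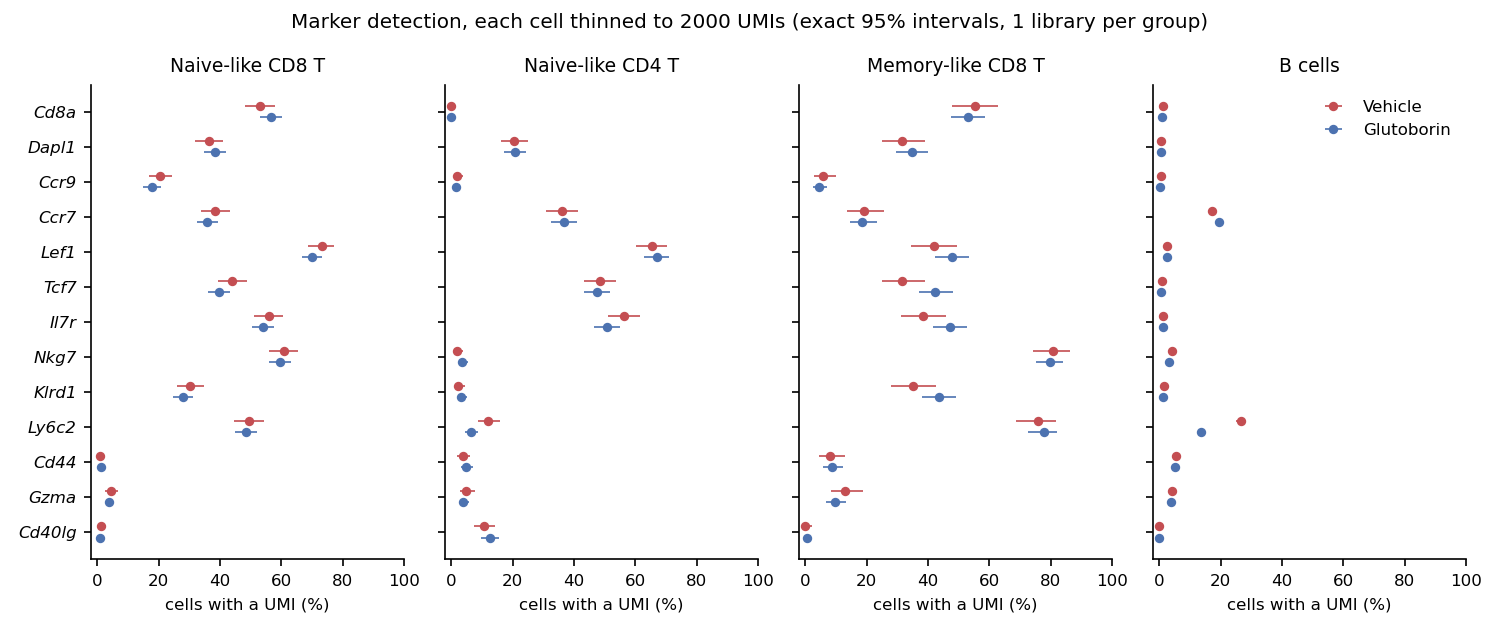
Share of cells with at least 1 UMI of each of 13 genes (x axis, percent) in 4 cell types, with each cell thinned to 2000 UMIs; points are the 2 libraries and bars exact 95% intervals. Members carry Cd8a, Dapl1 and Ccr9 and almost no Cd44, which was also low in excluded cells with 2 memory genes. Ccr9 is found in 20.4% and 17.7% of members but in 5.65% and 4.33% of memory-like CD8 cells.

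Members were set beside 2 neighbouring populations to place them, as a description: the rules that define the populations fix part of these differences, so they carry no test. Naive-like CD4 T cells were chosen by the same limits with Cd4 in place of Cd8b1 and with Cd8b1, Cd8a and Foxp3 at 0 (353 Vehicle and 524 Glutoborin cells). Memory-like CD8 T cells met the CD8 limits with 2 or more of the 6 memory genes and any number of Ccl5 UMIs (177 and 323 cells). Of 8938 genes measured in members and CD4 cells, 205 were at least 1.5-fold higher in members in both libraries (2.29%) and 365 at least 1.5-fold lower (4.08%). Of 9081 genes measured in members and memory-like CD8 cells, 323 were higher (3.56%) and 518 lower (5.7%).

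Beside the CD4 cells, the members carried a set of transcripts better known from killer lymphocytes. Of these, Nkg7 and Klrd1 were higher still in the memory-like CD8 cells, as given below. Nkg7, which encodes a membrane protein of cytotoxic granules, reached 513 CPM in Vehicle members and 9.98 in Vehicle CD4 cells, and at 552 and 17.1 CPM in Glutoborin, log2 ratios of 5.68 (interval 5.07 to 6.38) and 5.02 (4.60 to 5.46). Klrd1, the CD94 chain of NK cell receptors, was at 175 against 13.3 CPM in Vehicle and 182 against 11.99 in Glutoborin. Ctsw, the lysosomal protease cathepsin W, was at 151 against 15.7 CPM and 155 against 20.0. Lcn4, Fam241a, Tmem108 and Cd7 were also among the 10 higher genes named by the rule. Thinned to 2000 UMIs, 60.9% and 59.7% of members had a UMI of Nkg7, against 4.03% and 3.04% of B cells. The executioner genes of killing were low in comparison: Prf1, perforin, stood at 33.5 and 42.1 CPM, Gzma at 23.6 and 18.7 and Gzmb at 3.98 and 6.102.

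The lineage factors divided the naive-like populations. Runx3, which directs the CD8 lineage, was at 246 CPM in Vehicle members against 68.9 in Vehicle CD4 cells, and at 231 against 64.3 in Glutoborin, log2 ratios of 1.83 and 1.84. Zbtb7b, the CD4-lineage factor ThPOK, was at 3.32 against 56.1 CPM in Vehicle and 4.00 against 51.6 in Glutoborin. Cd40lg, through which CD4 cells help B cells, was at 2.65 against 71.8 and 4.42 against 62.5 CPM. Itgae, the integrin chain CD103, was at 28.9 and 27.8 CPM in members, and the CD4 cells held 1 UMI of it in Vehicle and 0 in Glutoborin. Pdlim4, Maf, Izumo1r, Itm2a, Tesc, Trat1 and Tspan32 were the other lower genes named. The related surface antigen genes Ly6c2 and Ly6c1 were used in opposite ways: Ly6c2 was at 663 against 69.9 CPM in Vehicle and 685 against 80.7 in Glutoborin, whereas Ly6c1 was at 40.5 against 456 and 24.8 against 302. They are close copies of each other, and reads could have been split between them by the counting.

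Genes of rest and survival differed from the CD4 cells to unequal degrees. Lef1 differed from them by log2 ratios of 0.09 in Vehicle and -0.07 in Glutoborin, Bcl2 by -0.11 and -0.10, and S1pr1 by -0.07 and -0.06. Several factors of rest were lower in members: Bcl11b, which keeps T cell identity, by log2 ratios of -0.61 and -0.65, Btg2, an inhibitor of proliferation, by -0.59 and -0.58, Bach2, which restrains effector genes, by -0.33 and -0.69, Foxo1 by -0.35 and -0.40 and Tcf7 by -0.27 and -0.40. Dapl1 was higher in members, at 389 against 194 CPM and 406 against 187, and Igfbp4 was lower, at 174 against 428 and 184 against 409. Cd5, whose level on naive T cells is known to follow the strength of self recognition, was lower in members, at 86.3 against 222 CPM in Vehicle and 107 against 220 in Glutoborin.

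Beside the memory-like CD8 cells, Ccr9 stood first among genes of at least 50 CPM by the smaller of its library ratios, at 143 against 22.9 CPM in Vehicle and 109 against 21.5 in Glutoborin, log2 ratios of 2.65 (2.22 to 3.09) and 2.34 (1.98 to 2.71). Lef1 was at 630 against 276 CPM and 611 against 322, Klf2, a factor that keeps T cells circulating, at 969 against 554 and 826 against 558, and S1pr1 at 181 against 88.5 and 171 against 102. Iigp1 and Gbp2, GTPases induced by interferon gamma, were also higher in members, Iigp1 at 178 against 38.6 and 144 against 34.9 CPM. Igfbp4, Rgcc, Tgtp1, Pmepa1, Ramp1, Tdrp and Gm12840 completed the 10 higher genes named by the rule. Dapl1 differed less, at 389 against 284 CPM in Vehicle and 406 against 337 in Glutoborin (log2 ratios 0.45 and 0.27). Tcf7 differed by log2 ratios of 0.50 and 0.06. Nkg7 was lower in members, at 513 against 1238 CPM and 552 against 1164. So were Klrd1, at 175 against 279.5 and 182 against 369, and Ly6c2, at 663 against 1329 and 685 against 1259. Of the 10 lower genes, Klrc1, Klre1, Gzma and Gzmb belong to NK cell receptors and cytotoxic granules, and Hist1h1b, Hist1h2ae, Hist1h2ap, Ube2c, Rrm2 and Birc5 to dividing cells. Gzmb was at 3.98 against 189 CPM in Vehicle and 6.102 against 154 in Glutoborin, and S100a6, a calcium-binding protein of experienced T cells, at 24.9 against 257 and 41.0 against 368.

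The comparison of the study, Glutoborin against Vehicle, was then made within the members. UMIs were summed over the members of each library and divided by the library's member total, and a log2 ratio below 0 means a lower share of transcripts in the Glutoborin library. Among 7969 genes with at least 50 UMIs over both libraries and outside the rule, 160 were at least 1.5-fold higher in Glutoborin (2.01%) and 259 at least 1.5-fold lower (3.25%), and the median over all of them was -0.06. Lower genes were 61.8% of those past 1.5-fold, but 44.5% when the libraries were scaled to the median ratio of all genes, which moved the median of all genes to 0.02.

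Interferon-induced transcripts were at a lower level in the Glutoborin members, although cells with high levels had already been removed from both libraries. They were not alone in this. Marker lists of other cells had lower medians still: -0.61 for B cells (5 of 8 measured genes at least 1.5-fold lower) and -0.78 for myeloid cells (5 of 9). Plasma cell markers were at -0.96 (3 of 3) and CD4 and regulatory T cell markers at -0.88 (2 of 3), whereas neutrophil markers were at 0.79. Of 65 listed genes induced by type I interferon, none of them used by the rule, 63 were in the files and 58 were measured. None was at least 1.5-fold higher and 22 were at least 1.5-fold lower, against 2.01% and 3.25% of all genes. The median log2 ratio was -0.54, and all 58 ratios were below 0, from -1.23 to -0.05. The list does not hold Ifi27, which was higher in Glutoborin (log2 ratio 0.45) and is described below. With the median scaling 16 genes, not 22, were at least 1.5-fold lower (2.32% of all genes there). The median of the list was then -0.47, and Irf9 passed 0. With means of per-cell values Ifit2 passed 0. In the 63 Vehicle and 275 Glutoborin members without any of the rule's 8 interferon genes, 36 of 43 measured genes were below 0. There 7 were at least 1.5-fold lower, against 6.51% of all genes. Irf7, Irf9, Lgals9, Nmi, Pml, Shisa5 and Trim12a were at or above 0. That set is cut by genes of the rule, so its values are a description and support nothing. Summed, the 63 genes made up 11090 CPM in Vehicle against 8047 CPM in Glutoborin members.

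Among sensors and effectors of the antiviral response, Oasl2 (GRCm38 chromosome 5, 114896936 to 114912234), a relative of the oligoadenylate synthetases that sense double-stranded RNA, had a level of 89.9 CPM in Vehicle against 38.3 CPM in Glutoborin. Its log2 ratio was -1.23 (interval -1.51 to -0.96), and without thinning 178 of 442 Vehicle and 137 of 754 Glutoborin members had a UMI of it. Oas2 of the same family was at 17.2 and 7.36 CPM. Rnf213 (chromosome 11, 119393100 to 119487418), a very large ubiquitin ligase that acts against intracellular microbes, was at 158 and 78.1 CPM (log2 ratio -1.02, -1.22 to -0.82). Thinned to equal depth, 23.6% of Vehicle and 13.96% of Glutoborin members had a UMI of it. Zbp1, a sensor of nucleic acids in the Z form, was at 245 and 145 CPM, and Rtp4, an interferon-induced chaperone of receptors, at 183 and 107 CPM.

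Ifi27l2a was the most abundant gene of the list in the Vehicle members, at 1530 CPM, against 908 CPM in Glutoborin. A UMI of it was found in 88.8% of thinned Vehicle and 69.8% of thinned Glutoborin cells, and its log2 ratio was -0.75 (-0.81 to -0.69). The 10 richest cells held 8.50% and 8.66% of its UMIs. Bst2, which encodes tetherin, a protein that holds budding viruses at the cell surface, was at 307 and 188 CPM (log2 ratio -0.70, -0.84 to -0.57). Ifi27, which lies beside Ifi27l2a on chromosome 12 (GRCm38, 103434211 to 103440239 on the plus strand against 103442167 to 103443680 on the minus strand), ran the other way. It was at 96.9 CPM in Vehicle against 132 CPM in Glutoborin (log2 ratio 0.45, 0.24 to 0.65), and was detected in 182 of 442 and 395 of 754 members.

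Genes of signalling from the interferon receptor differed by unequal amounts. Ifnar1 and Ifnar2, the receptor chains, were at 55.4 and 44.6 CPM (Ifnar1) and at 57.4 and 57.0 CPM (Ifnar2). Of the transcription factor subunits, Stat2 was at 48.1 and 25.9 CPM (log2 ratio -0.89, -1.25 to -0.54) and Irf9 at 77.7 and 75.1 CPM, with an interval from -0.29 to 0.20. Socs1, an inhibitor of JAK kinases that interferon itself induces, was at 150 and 101 CPM. Irf7, which amplifies the response, was at 233 and 164 CPM. Of 14 measured genes of this pathway outside the rule, Stat2 alone was at least 1.5-fold lower, and the median was -0.16.

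**Figure D2:**
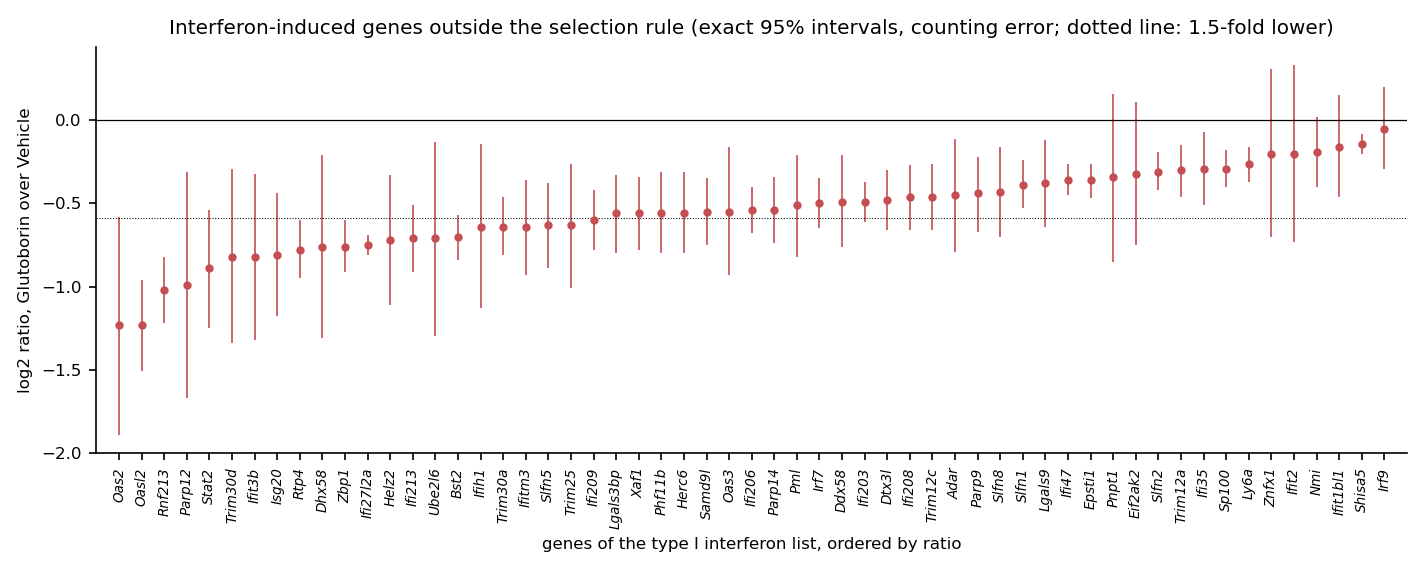
Log2 ratio of Glutoborin over Vehicle for 57 of the 58 measured genes of the type I interferon list in naive-like CD8 T cells, ordered by ratio, with exact 95% intervals for counting error. All points shown lie below 0 and 50 of the 57 intervals do; 22 genes lie below the dotted line of 1.5-fold.

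Genes induced by interferon gamma were lower by less. Of 30 measured, 7 were at least 1.5-fold lower and none higher, against 3.25% and 2.01% of all genes, and the median was -0.31. Gbp2 and Gbp7, guanylate-binding proteins that attack the vacuoles of intracellular parasites, were at 311 and 199 CPM (Gbp2) and 320 and 202 CPM (Gbp7). Serpina3g, a protease inhibitor, was at 25.9 and 10.1 CPM, and Cd274, the gene of PD-L1, at 74.7 and 46.1 CPM. The family members are similar in sequence, as are those of the Ifi200, Trim, Slfn and Ifit families, so that single values can share reads. Of the 21 genes of MHC class I presentation, H2-T24 alone was past 1.5-fold, at 12.3 and 6.52 CPM. B2m, the light chain of MHC class I, was at 2702 and 2428 CPM, and H2-K1 at 2569 and 2497 CPM. The median of that list was -0.16.

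**Figure D3:**
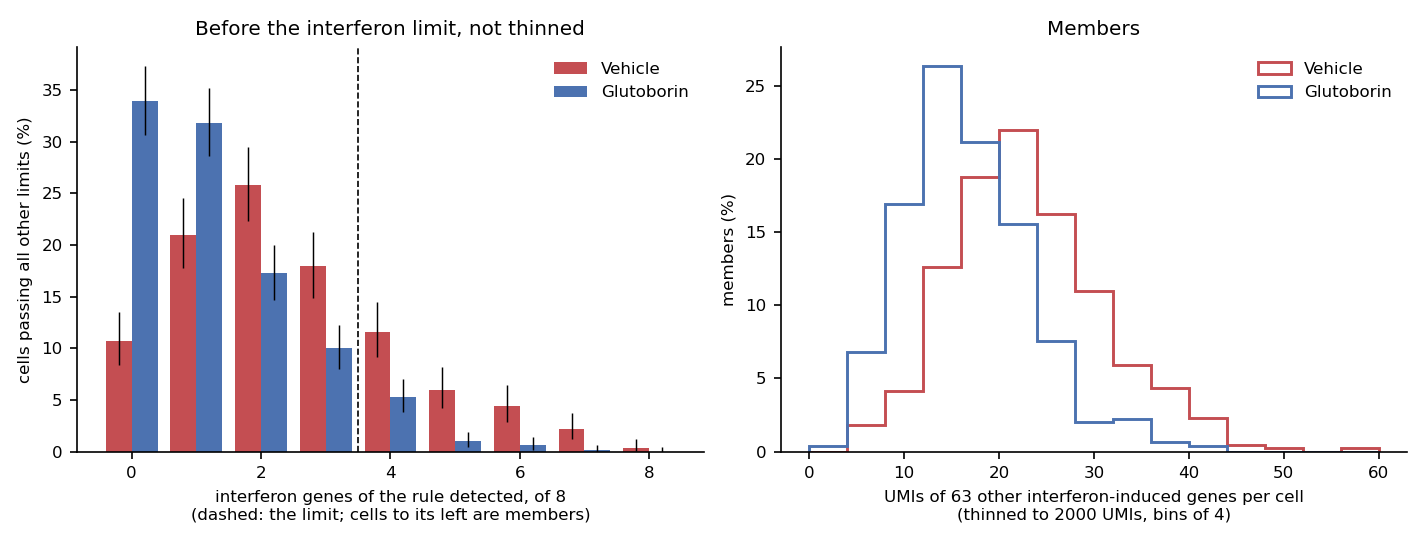
Left: share of cells (y axis, percent) by the number of the rule's 8 interferon genes detected, for cells that passed every other limit, with exact 95% intervals; cells left of the dashed line are members. Right: share of members by UMIs of the 63 interferon-induced genes outside the rule, thinned to 2000 UMIs per cell, where the medians are 22 in Vehicle and 15 in Glutoborin.

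UMIs of the list were then counted cell by cell. Thinned to 2000 UMIs, a Vehicle member held a median of 22 UMIs of the 63 genes (10th to 90th percentile 13 to 33) and a Glutoborin member a median of 15 (8 to 25). Before the interferon limit the medians were 23 and 16. The distributions overlapped broadly, as the plot of UMIs per cell shows. Among members without any of the rule's 8 interferon genes, a share of 14.2% in Vehicle and 36.5% in Glutoborin, the summed level was 8007 and 6766 CPM (log2 ratio -0.24, -0.30 to -0.19). Among members with 1, 2 or 3 of those genes it differed by log2 ratios of -0.38, -0.34 and -0.30. These bins are cut by genes of the rule that themselves differ between the libraries, so they are a description and support nothing.

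Interferon-induced genes were also lower in the Glutoborin library in neighbouring cells, where the same list gave 13 of 57 genes at least 1.5-fold lower and 1 higher in naive-like CD4 cells (2.62% and 4.11% of all genes there), with a median of -0.42. In memory-like CD8 cells 13 of 54 were lower and none higher (6.42% and 4.03% of all genes there), with a median of -0.37. Rnf213 had log2 ratios of -1.02 in members, -1.10 in CD4 cells and -1.02 in memory-like cells, and Oasl2 had -1.23, -1.09 and -0.91. Ifitm3, which blocks virus entry, was an exception: it was lower in members (-0.64, with 68.6% of its Glutoborin UMIs in 10 cells) and in memory-like cells (-0.95) and higher in CD4 cells (1.08, interval 0.79 to 1.38), where the summed myeloid markers were also higher in Glutoborin, at 1014 against 509 CPM. Whether the difference between libraries was larger in the members than in these neighbours was not tested.

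The upstream sequences of the lower interferon genes are shown because interferon acts through a short DNA element at such promoters. The sequence GAAANNGAAA, the core bound by STAT and IRF factors, was searched on both strands (TTTCNNTTTC on the other) in the 250 bases before each RefSeq transcript start on GRCm38.p6. It occurred at 3.46% of 27025 genes with a promoter in the table and at 3.54% of the 6386 measured genes matched to it. Of the type I interferon list 49 of 58 measured genes were matched and 16 held it (32.7%). It was present at 7 of the 17 matched genes that were at least 1.5-fold lower (41.2%) and at 9 of the 32 others (28.1%), a description only. The 4 lower genes with a match and the most UMIs are printed 5′ to 3′ on the strand of the gene, with the matches in capitals: Bst2 (chr8:71537473-71537722, minus strand, 2 overlapping matches), Trim30a (chr7:104465194-104465443, minus strand, 1 match on the opposite strand), Ifi213 (chr1:173599273-173599522, minus strand, 1 match) and Slfn5 (chr11:82951852-82952101, plus strand, 1 match).
Bst2: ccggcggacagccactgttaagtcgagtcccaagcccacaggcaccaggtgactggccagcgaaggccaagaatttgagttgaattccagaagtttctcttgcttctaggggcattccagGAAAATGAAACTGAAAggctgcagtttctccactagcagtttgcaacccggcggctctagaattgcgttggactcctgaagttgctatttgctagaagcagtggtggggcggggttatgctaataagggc
Trim30a: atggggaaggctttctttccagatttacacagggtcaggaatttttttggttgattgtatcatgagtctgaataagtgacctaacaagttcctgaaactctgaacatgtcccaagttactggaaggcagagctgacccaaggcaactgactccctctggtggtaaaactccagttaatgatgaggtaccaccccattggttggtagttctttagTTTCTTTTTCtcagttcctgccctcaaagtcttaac
Ifi213: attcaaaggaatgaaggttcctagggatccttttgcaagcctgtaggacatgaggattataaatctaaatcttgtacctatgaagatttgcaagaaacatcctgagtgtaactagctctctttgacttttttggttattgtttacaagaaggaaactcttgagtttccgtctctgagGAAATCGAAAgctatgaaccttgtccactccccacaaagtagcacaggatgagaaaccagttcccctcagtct
Slfn5: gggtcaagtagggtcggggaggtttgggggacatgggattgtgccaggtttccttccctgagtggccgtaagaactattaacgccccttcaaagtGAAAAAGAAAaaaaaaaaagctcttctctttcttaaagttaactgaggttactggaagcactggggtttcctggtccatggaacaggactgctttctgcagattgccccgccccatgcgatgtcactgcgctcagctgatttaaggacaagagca

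In these windows the match began 130 bases before the start in Bst2, 36 in Trim30a, 73 in Ifi213 and 155 in Slfn5. Trim30a, a ubiquitin ligase of the TRIM family, was at 180 CPM in Vehicle and 116 in Glutoborin members, Ifi213, of the interferon-induced family of DNA sensors, at 142 and 86.9, and Slfn5, of the Schlafen family of growth regulators, at 82.6 and 53.2. Oasl2 and Rnf213 had no match in their windows, and Ifi27l2a, Zbp1 and Rtp4 were not among the matched genes.

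Some transcripts of recent activation were lower in Glutoborin. Of 26 measured genes of activation and the immediate early response, 4 were at least 1.5-fold lower (3.25% of all genes were) and none higher, with a median of -0.24 and 6 genes above 0. Tnfaip3 (chromosome 10, 19000910 to 19015657), which encodes A20, a brake on NF-kB signalling that NF-kB itself induces, was at 106 CPM in Vehicle against 55.3 CPM in Glutoborin members (log2 ratio -0.94, -1.18 to -0.70). Thinned to 2000 UMIs it was found in 16.9% and 9.84% of cells, and at full depth in 44.8% and 25.5%. Cd69 (chromosome 6, 129267325 to 129275436), which holds activated lymphocytes in tissue by pulling S1PR1 from the surface, was at 278 and 173 CPM (log2 ratio -0.68, -0.82 to -0.54), and was found in 39.8% and 24.9% of thinned cells (67.7% and 49.7% of cells at full depth). The groups of cells overlapped for both genes, since most cells of each library had no UMI at this depth.

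Other early genes differed in both directions. Fos, a subunit of the AP-1 factor, was at 262 and 172 CPM, and Dusp2, a phosphatase of MAP kinases, at 321 and 216 CPM. Egr3, a factor induced by the T cell receptor, was at 14.9 and 9.89 CPM with an interval that reached 0.03. Ier2 was higher, at 150 and 185 CPM (log2 ratio 0.31, 0.14 to 0.48), and Junb, a further AP-1 subunit, was at 891 and 960 CPM. In the other cells Tnfaip3 had log2 ratios of -0.76 (CD4) and -0.18 (memory-like CD8, interval -0.48 to 0.13), and Cd69 had -0.71 and -0.57. With median scaling 2 genes of the list, not 4, were past 1.5-fold, with a median of -0.17.

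Regulators of rest were lower at 2 abundant genes. Tsc22d3, which encodes GILZ, a glucocorticoid-induced factor, was at 372 CPM in Vehicle against 226 CPM in Glutoborin (log2 ratio -0.72, -0.84 to -0.59). Zfp36l2, an RNA-binding protein that promotes decay of messages and restrains T cell activation, was at 483 and 302 CPM (log2 ratio -0.68, -0.79 to -0.57). Both were also lower in Glutoborin CD4 cells (-0.50 and -0.75) and memory-like CD8 cells (-0.49 and -0.38). Of the 26 measured genes in the list of quiescence and fate factors, Tsc22d3 alone was past 1.5-fold, and the median was -0.10. Runx3 was at 246 and 231 CPM and Foxo1 at 135 and 130 CPM.

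**Figure D4:**
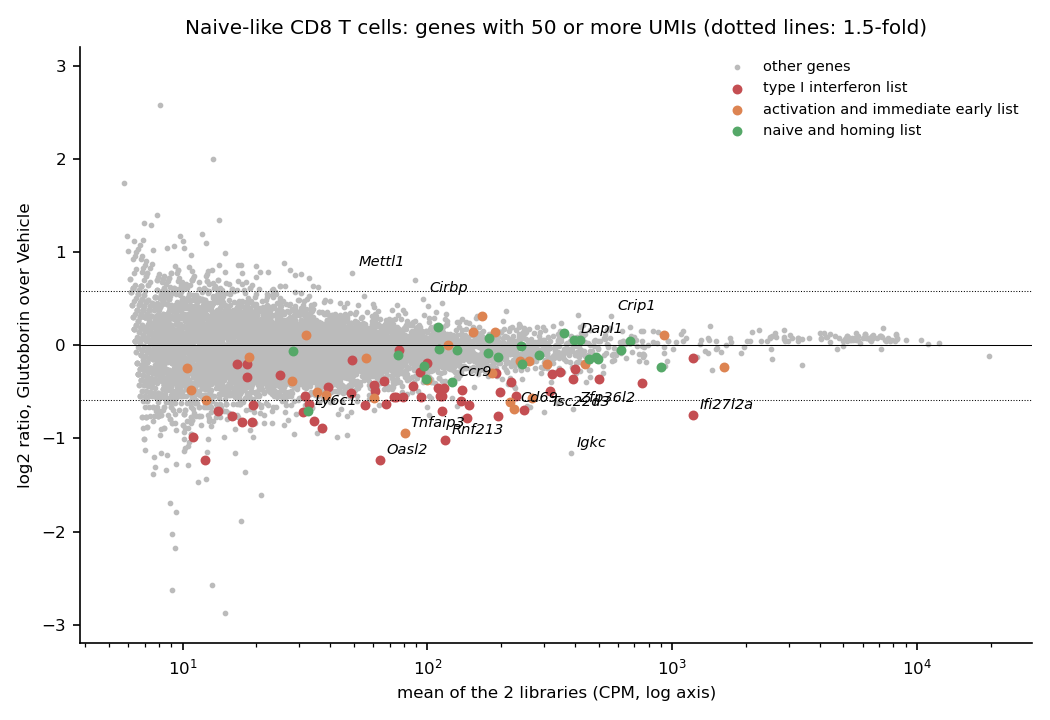
Mean level (x axis, CPM, log axis) and log2 ratio of Glutoborin over Vehicle (y axis) for genes with at least 50 UMIs in naive-like CD8 T cells, with 3 lists in colour. The listed interferon genes lie below 0, as do Tnfaip3, Cd69, Tsc22d3 and Zfp36l2, while Dapl1 lies near 0.

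The genes of naive identity and homing were close to each other in the libraries. Of 24 measured, 1 was at least 1.5-fold lower and none higher, and the median was -0.09, near that of all genes. Dapl1 was at 389 and 406 CPM and Lef1 at 630 and 611. The gene past the limit was Ly6c1, at 40.5 and 24.8 CPM. Ccr9 was at 143 CPM in Vehicle against 109 CPM in Glutoborin (log2 ratio -0.40, -0.59 to -0.21), though the shares of thinned cells with a UMI, 20.4% (16.7% to 24.4%) and 17.7% (15.0% to 20.6%), overlapped in their intervals (45.9% and 37.5% at full depth). Klf2 was at 969 and 826 CPM (log2 ratio -0.23, -0.30 to -0.16), and its target S1pr1 at 181 and 171 CPM. Bcl2, which protects resting T cells from death, was at 344 and 377 CPM.

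The T cell receptor and its signalling chain showed no gene past 1.5-fold among 26 measured, with a median of -0.09. Cd8a was at 435 and 445 CPM, Lck, the kinase bound to CD8, at 457 and 421, and Zap70, the next kinase, at 89.3 and 91.9. Cd5 was higher, at 86.3 and 107 CPM (log2 ratio 0.32, 0.10 to 0.54), and Trac, the constant part of the receptor's alpha chain, was at 588 and 548 CPM. Receptor variable segments were too sparse to compare, since none of 61 Trav and 21 Trbv segments reached 50 UMIs.

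Among trafficking and cytokine receptors, Rgs1, which dampens chemokine receptor signals, was at 49.1 and 26.1 CPM, with 46.6% of its Vehicle UMIs in 10 cells. Cxcr4, the receptor for CXCL12, was at 54.4 and 33.9 CPM (log2 ratio -0.68, -1.01 to -0.36), and was detected in 129 of 442 and 145 of 754 members. These, both lower, were the 2 of 21 measured genes of chemokine, S1P and adhesion receptors past 1.5-fold (3.25% of all genes were lower by as much). Of 22 measured cytokine receptor genes, 2 were at least 1.5-fold lower (3.25% of all genes were) and none higher. These were Cish, an inhibitor of cytokine signals, and Il2ra, the high-affinity chain of the interleukin-2 receptor, both under 14 CPM. Il7r was at 526 and 474 CPM (log2 ratio -0.15, -0.24 to -0.06).

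Effector genes gave a direction that depended on which cells were kept. Of 15 measured, 3 were at least 1.5-fold higher in Glutoborin (2.01% of all genes were) and none lower, with a median of 0.11. Without the interferon limit 1 of 18 was higher and 6 lower (2.19% and 4.52% of all genes there), with a median of -0.33. In members without doublets or with mitochondrial UMIs under 5%, 1 of 15 was higher (1.91% and 2.05% of all genes there). Ccl4, a chemokine of activated killer cells, was at 5.31 and 21.2 CPM, but its 101 Glutoborin UMIs came from 14 cells. S100a4 and S100a6, also abundant in myeloid cells, had 85.5% and 72.8% of their Glutoborin UMIs in 10 cells, and fewer members had a UMI of either in Glutoborin (35 and 63) than in Vehicle (59 and 66). Nkg7 was at 513 and 552 CPM (log2 ratio 0.11, 0.01 to 0.20), and Prf1 at 33.5 and 42.1 CPM, with an interval from -0.02 to 0.69. Id2, a factor of effector differentiation, was at 179 and 131 CPM (log2 ratio -0.45, -0.61 to -0.28).

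**Figure D5:**
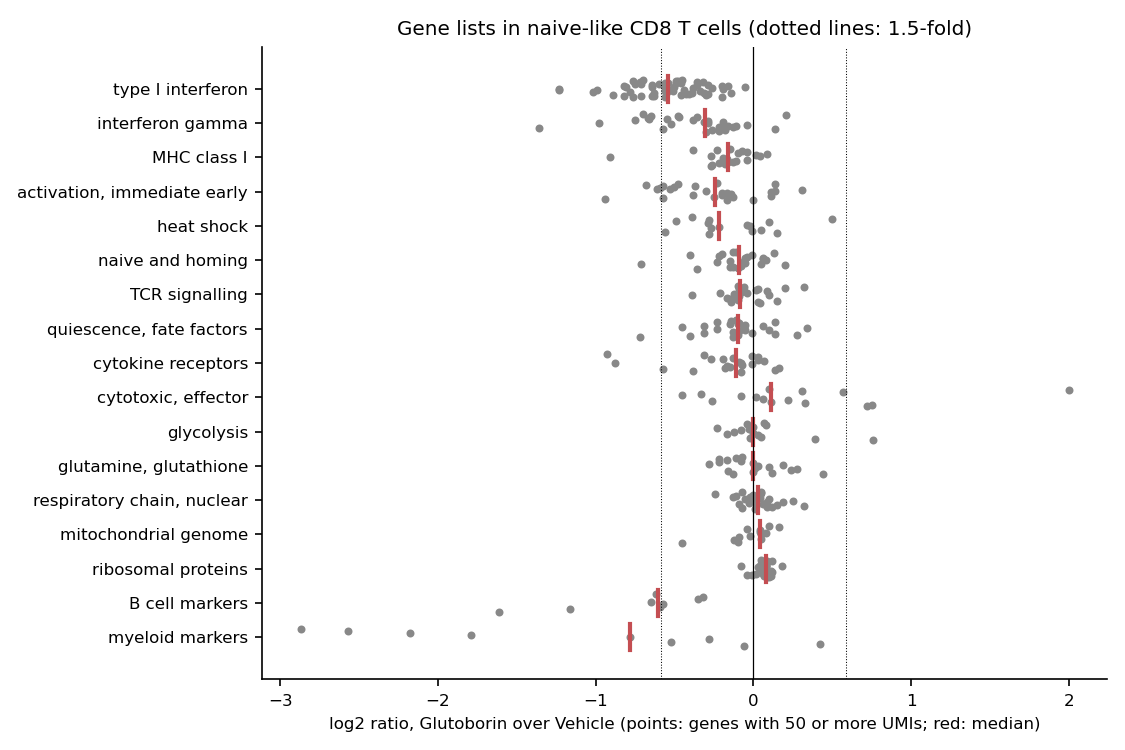
Log2 ratio of Glutoborin over Vehicle (x axis) for the measured genes of 17 lists in naive-like CD8 T cells, with rule genes left out; each point is a gene and the red bar the median. The type I interferon list has a median of -0.54, and ribosomal proteins cluster around 0.08. B cell and myeloid markers, genes typical of other cell types, have medians of -0.61 and -0.78.

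Metabolic and housekeeping lists lay near 0. Ribosomal proteins, the most abundant transcripts, summed to 208500 CPM in Vehicle against 218900 CPM in Glutoborin, with 36 of 39 above 0, none past 1.5-fold and a median of 0.08 (0.15 with median scaling). Respiratory chain genes of the nucleus had a median of 0.03, those of the mitochondrial genome 0.04, glycolysis -0.00 and glutamine and glutathione metabolism 0.00. Tpi1, a glycolytic isomerase, was past the limit, at 22.6 and 38.1 CPM (log2 ratio 0.76, 0.35 to 1.18). Of 15 measured heat shock and temperature genes none passed 1.5-fold, and the median was -0.22. Hspa8, a constitutive chaperone, was at 1580 and 1314 CPM, and Dnajb1, its stress-induced partner, at 107 and 76.4 CPM.

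Few survival, inhibitory and division genes passed 1.5-fold. Of 13 measured survival genes 1 was past it on the higher side and 1 on the lower side, with a median of -0.09. Among all genes 2.01% were higher and 3.25% lower by as much. The lower one was Fas, a death receptor, at 48.1 and 31.6 CPM. Ctla4, an inhibitory receptor, was at 10.9 and 5.89 CPM and was found in 20 of 442 Vehicle and 20 of 754 Glutoborin members. Of 13 measured cell cycle genes 1 was at least 1.5-fold lower (3.25% of all genes were) and none higher. This was Top2a, a topoisomerase of dividing cells, at 19.6 and 9.89 CPM, with 69.5% of its Vehicle UMIs in 10 cells.

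The cold-induced RNA-binding proteins of the heat shock and temperature list ran against its median of -0.22. Cirbp was at 79.6 CPM in Vehicle against 112 CPM in Glutoborin (log2 ratio 0.50, 0.27 to 0.72), and was detected in 182 of 442 and 372 of 754 members. Rbm3 was at 592 and 659 CPM (log2 ratio 0.15, 0.07 to 0.24). Cirbp was also higher in Glutoborin CD4 cells (0.53, interval 0.28 to 0.79), and in memory-like CD8 cells its ratio was 0.18 (-0.11 to 0.47).

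By the rule for naming genes, 12 genes had the higher levels in Glutoborin farthest from counting error, and 11 of them are given here: AC149090.1, Mettl1, Cirbp, Ifi27, Pkp3, Mrpl52, Crip1, Hcst, Lyz2, H2-Ke6 and Lamtor5. AC149090.1, annotated as protein-coding on an unplaced scaffold, was at 68.0 and 110 CPM (log2 ratio 0.70, 0.46 to 0.94). Mettl1, which methylates transfer RNA, was at 36.2 and 62.1 CPM (log2 ratio 0.78, 0.46 to 1.11), with -0.03 in CD4 cells and -0.06 in memory-like CD8 cells. These were the 2 of the 12 past 1.5-fold. Hcst, the DAP10 adaptor of killer cell receptors, was at 365 and 457 CPM, and Mrpl52, of the mitochondrial ribosome, at 182 and 236 CPM. Pkp3, Crip1, H2-Ke6 and Lamtor5 had log2 ratios of 0.53, 0.31, 0.43 and 0.44. Lyz2, a myeloid lysozyme, was at 86.3 and 116 CPM, but 75.6% of its Glutoborin UMIs lay in 10 cells. It was found in 178 Vehicle and 139 Glutoborin members, and its log2 ratio went from 0.42 to -0.62 without the 4 members called doublets.

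Of the 12 genes on the lower side, Oasl2, Rnf213, Ifi27l2a, Zbp1, Rtp4, Tnfaip3, Tsc22d3 and Zfp36l2 have been described. Igkc, the immunoglobulin kappa constant region, was at 531 and 237 CPM (log2 ratio -1.16, -1.27 to -1.05), and had a UMI in 65.9% of Vehicle and 38.3% of Glutoborin members thinned to equal depth. It was lower by a similar amount in CD4 cells (-1.06) and memory-like CD8 cells (-0.85). Ly6d, a gene of B cells, was at 61.7 and 31.8 CPM. Irf8 and Cst3, genes of dendritic and other myeloid cells, were at 56.4 and 28.6 CPM (Irf8) and 177 and 103 CPM (Cst3), with 47.1% and 51.3% of their Vehicle UMIs in 10 cells. The sign of Cst3, at -0.78, was lost in 4 alternatives that kept fewer cells, at 0.03 to 0.14, and that of Irf8, at -0.98, in 1, at 0.29.

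Cells that carried chosen transcripts of other lineages were then left out, an alternative chosen after the data had been seen. In the 108 Vehicle and 403 Glutoborin members without any UMI of Cd79a, Jchain, Lyz2, C1qa, C1qb, C1qc, S100a8, S100a9 or Camp, 51 genes of the type I interferon list were measured. All 51 were below 0 and 23 were at least 1.5-fold lower, with a median of -0.57, against 5.5% of all genes lower there. The median of the activation list was -0.41, and Tnfaip3 had a log2 ratio of -1.24. These cells still carried transcripts of B cells that differed between the libraries: all 8 measured B cell markers were below 0, 3 were at least 1.5-fold lower, and their median was -0.51. Igkc had a log2 ratio of -1.26 and Ly6d of -1.28 in them. The part of such transcripts in the interferon and activation values was not tested.

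Cells at the edges of the rule were compared by level, with no test. Members with exactly 1 UMI of Cd8b1 (40 Vehicle and 69 Glutoborin cells) were shallower, with medians of 5425.5 and 4587 UMIs, and poorer in CD8-lineage transcripts. Nkg7 was at 218 and 139 CPM in them, against 535 and 585 in members with 2 or more, and Dapl1 at 169 and 211 against 405 and 421. Members with 1 memory gene (172 and 268 cells) were set beside excluded cells with 2 (56 and 101 cells). Ccr9 was at 130 and 89.99 CPM inside and 78.8 and 51.4 outside, Lef1 at 610.5 and 595 inside and 471 and 426 outside, and Nkg7 at 528 and 614 inside and 936 and 812 outside. Cells with 3 of the interferon genes (105 and 81) and excluded cells with 4 (68 and 43) had Ifi27l2a at 1893 and 1170 CPM inside and 2010 and 1569 outside. Cells with 1 or 2 UMIs of Ccl5 (73 and 165) had Ccr9 at 75.1 and 91.8 CPM and Dapl1 at 410 and 447. Excluded cells with 3 or more (16 and 31) had Ccr9 at 34.1 and 18.0 CPM and Dapl1 at 478 and 782. In excluded cells with 2 memory genes Dapl1 was at 412 and 521 CPM, against 424.5 and 432 in members with 1.

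The genes of the rule itself had these levels in the members. Cd8b1 was at 1025 CPM in Vehicle against 997 CPM in Glutoborin. Isg15, a ubiquitin-like protein induced by interferon, was at 184 and 96.8 CPM, and Ifit3 at 99.9 and 51.1. Il2rb, the shared interleukin-2 and interleukin-15 receptor chain of memory cells, was at 52.8 and 36.2 CPM, and Eomes, a memory factor, at 10.3 and 18.5.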

How the data were processed

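As deposited, each matrix lists raw UMI counts, 1 whole number for every gene and barcode, with no normalization. Per the file headers, Cell Ranger 6.1.2 made them, whereas the submitters' processing notes list Cell Ranger 6.0.1, Seurat 4.3.0 and mm10. No release of the annotation is named in those sources. Gene names are those in the files, and 32235 of 32285 identifiers (99.85%) were found in the GENCODE annotation of GRCm38, the assembly also called mm10, which gave the positions.

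The members, the gene lists and the tests were chosen with earlier results of these data known. Counts were summed over members per library and scaled to 1000000 UMIs (CPM). The log2 ratio of Glutoborin over Vehicle has an exact interval for a ratio of Poisson counts, and shares have exact Clopper-Pearson intervals, at 95% confidence. A gene was measured with at least 50 UMIs over both libraries, and past the limit at 1.5-fold. UMIs were counted, so reads copied from 1 molecule count once, but captured molecules are not independent of the cell they came from. With 1 library per group there is no replicate check. Floors for a count of 0 are 3 cells of the total.

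Genes outside the rule were named if they had at least 50 CPM in the higher library and were among the 12 on each side whose interval bound lay farthest from no change. List members were named with their list, those farthest from 0 preferred, and for the other cell types the 10 genes per side with at least 50 CPM and the largest smaller ratio of both libraries; other genes were taken from the lists.

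Doublets were called per library by Scrublet in scanpy 1.11.5 (196 Vehicle and 352 Glutoborin barcodes, 2.93% and 3.80%). They were kept in the main values, where 1 and 3 of them are members, and left out in an alternative. Scripts used Python 3.11.15, numpy 2.4.6 and scipy 1.17.1. The intervals were tested on simulated independent Poisson counts, the model they assume, so that test leaves out the clustering of UMIs in cells. Promoters are from RefSeq (GRCm38.p6). The alternatives changed the mitochondrial limit, single limits of the rule, doublets, scaling, per-cell averaging, the UMI minimum and the depth of thinning. Some genes of the lists are not reported here by name.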

Additional observations from a re-analysis of the deposited data

Results flagged for a closer look

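Cst3, which encodes the protease inhibitor cystatin C and is abundant in dendritic cells and macrophages, had opposite signs in the naive-like populations. Its log2 ratio of Glutoborin over Vehicle was -0.78 in naive-like CD8 T cells (interval -0.96 to -0.60) and 0.60 in naive-like CD4 T cells (0.38 to 0.83). The difference was not tested. The CD8 value lost its sign in 4 alternatives, at 0.03 with mitochondrial UMIs under 5%, 0.14 with Cd79a at 0, 0.13 with 0 memory genes and 0.11 without RNA of other cells. In the CD8 members 10 cells held 51.3% of the Vehicle UMIs and 23.9% of the Glutoborin UMIs, and the gene was detected in 209 of 442 and 304 of 754 cells.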

How the results depend on the processing

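No paired analysis was possible because each group is 1 library, and no replicate could be left out. The median of the type I interferon list stayed below 0 in all 13 alternatives, from -0.74 without the interferon limit to -0.31 in members with none of the rule's interferon genes. The shares of members (Vehicle, then Glutoborin) were 7.99% and 10% with mitochondrial UMIs under 5%, 5.98% in Vehicle under 25%, 4.2% and 6.34% with Cd79a at 0, 8.76% and 8.76% without the interferon limit, 4.04% and 5.25% with 0 memory genes, 6.01% and 7.4% with Cd8b1 at 2 or more, 1.61% and 4.36% without RNA of other cells, and 0.942% and 2.97% with 0 interferon genes. Higher genes numbered 313 without RNA of other cells and 292 with 0 interferon genes; 686 were higher and 794 lower at 10 or more UMIs, and 12 and 55 at 200 or more. Median-of-ratios scaling gave 231 higher and 185 lower. Of 21 differences in the share of cells with a UMI, recomputed at other thinning depths or without thinning, 8 moved and kept their sign. Cd69 (-14.9 percentage points) was at -7.3 with 1000 UMIs. With 3000 UMIs and without thinning, Tnfaip3 (-7.09) was at -11.7 and -19.3, Ifi27l2a (-19) at -12.7 and -7.09, and Rnf213 (-9.61) at -15.6 and -21.5. Ccr9 (-2.68) was at -8.4 without thinning. Dapl1 (1.92) was at -1.84 with 3000 UMIs, with overlapping intervals of the shares in both cases. Signs turned for Cst3, at 0.03 under 5% mitochondrial UMIs, 0.14 with Cd79a at 0, 0.13 with 0 memory genes and 0.11 without RNA of other cells. They turned for Lyz2, at -0.62 without doublets, -1.16 without the interferon limit, -2.03 with 0 interferon genes and -0.56 with means of per-cell values, and for Irf8, at 0.29 with 0 interferon genes. The cell cycle list, at -0.20, moved to 0.04 with Cd79a at 0 and 0.08 with 0 interferon genes, and the effector list, at 0.11, to -0.33 without the interferon limit. The cause was not tested in any of these. The last 2 cell sets, chosen after the data were seen, hold fewer cells. With 1 library per group, differences between mice, sorts or library preparations and those of the treatment cannot be told apart, and genes under about 50 UMIs were too sparse to compare.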
